A study of Mus musculus with 16 samples.

Results

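Glutamate and GABA-A receptors are the channels and signalling receptors through which cortical neurons, and in part glia, sense the main excitatory and inhibitory transmitters. 31 genes for their subunits were followed here across 16 mouse cortices. The list of symbols was drawn up with earlier results of these data known, and held 4 AMPA, 5 kainate, 6 NMDA, 1 delta, 6 metabotropic glutamate and 9 GABA-A receptor genes of the 24060 genes listed. Of the 31 genes, 29 had a mean of at least 0.5 RPKM (reads scaled to gene length in kilobases and to library size) over the 16 libraries and were tested along with the other genes above that level, 13368 in all. The 2 below it were the NMDA subunit genes Grin2a and Grin2d.

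The mice were 8 to 9 months old, on a background labelled C57BL/6; C3, and each genotype had 4 mice, 2 female and 2 male. Controls (TREM2+/+) had both Trem2 alleles and lacked the tau transgene. The other 3 genotypes expressed P301S tau, which carries a mutation of inherited frontotemporal dementia in the protein that stabilises microtubules. They retained 2 Trem2 alleles (P301S+ TREM2+/+), 1 allele (P301S+ TREM2+/-, called heterozygotes) or none (P301S+ TREM2-/-, called knockouts). Trem2 is a lipid-sensing receptor of microglia, and the series asked what its partial and complete loss does to the cortex of tau mice. Trem2 loss was studied only on the transgenic background, and which promoter drives the transgene is not stated in the sources used here. The tissue was whole cortex, so that fewer cells of a type and less RNA per cell cannot be told apart. The labels name no litter, batch or preparation day.

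AMPA receptors (Gria1 to Gria4) carry most fast excitatory transmission, and their subunit mix sets calcium entry and desensitisation. NMDA receptors need the obligate subunit Grin1 together with Grin2 or Grin3 subunits, and admit calcium when glutamate binds to a depolarised cell. Kainate receptors (Grik1 to Grik5) act on both sides of the synapse, and metabotropic receptors (Grm genes) signal through G proteins. GABA-A receptors are chloride channels built mostly from alpha and beta subunits with a gamma or a delta subunit. The alpha subunit sets much of their pharmacology, and receptors with the delta subunit lie outside the synapse.

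The sequences just before the transcription start of 4 genes that the results turn on are given first. They include the neighbours Gabra4 and Gabrb1, which run in opposite directions on chromosome 5 from starts 387 bases apart. These 2 genes overlap at their starts: each start, and the window before it, lies inside the other gene. The other genes given are Grik3, with the widest fold range among the kainate genes outside 1 control library, and Gabra3, with the smallest p-values. Each sequence is the 250 bases before the annotated start in RefSeq (build GRCm38.p6), read along the gene's own strand. Capitals mark a GC box (GGGCGG) or a TATA box (TATAAA) on either strand. Gabra4 lies at chr5:71658309-71658558 (minus strand), Gabrb1 at chr5:71657671-71657920 (plus), Grik3 at chr4:125490446-125490695 (plus) and Gabra3 at chrX:72656920-72657169 (minus).
Gabra4: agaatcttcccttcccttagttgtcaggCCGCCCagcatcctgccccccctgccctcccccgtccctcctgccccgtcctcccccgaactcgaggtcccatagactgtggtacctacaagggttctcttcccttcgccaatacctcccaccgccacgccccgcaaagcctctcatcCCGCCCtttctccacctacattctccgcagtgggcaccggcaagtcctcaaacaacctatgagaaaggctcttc
Gabrb1: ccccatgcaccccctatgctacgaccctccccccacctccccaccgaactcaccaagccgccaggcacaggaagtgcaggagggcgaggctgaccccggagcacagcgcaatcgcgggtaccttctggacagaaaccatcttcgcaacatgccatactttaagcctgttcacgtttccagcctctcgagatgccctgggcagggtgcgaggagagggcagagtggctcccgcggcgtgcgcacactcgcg
Grik3: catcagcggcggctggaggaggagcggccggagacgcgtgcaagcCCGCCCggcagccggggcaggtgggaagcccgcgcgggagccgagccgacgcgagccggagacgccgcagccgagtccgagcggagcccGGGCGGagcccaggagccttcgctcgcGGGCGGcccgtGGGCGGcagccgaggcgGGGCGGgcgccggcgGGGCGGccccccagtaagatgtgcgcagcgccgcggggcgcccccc
Gabra3: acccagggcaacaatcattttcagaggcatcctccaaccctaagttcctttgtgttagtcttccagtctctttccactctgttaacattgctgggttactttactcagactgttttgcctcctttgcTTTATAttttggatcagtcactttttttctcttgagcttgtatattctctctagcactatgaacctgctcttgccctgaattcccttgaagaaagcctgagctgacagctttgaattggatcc
The Gabrb1 window, the first of 2 annotated for that gene, held none of the motifs searched, Gabra4 and Grik3 held GC boxes, and Gabra3 held a TATA box. RefSeq windows were matched for 21 of the 31 genes (28 windows). A GC box was found in 46.4% of them, against 32.7% of the 32851 windows of all genes. TATAAA occurred in 10.7% of the receptor windows and in 12.4% of all windows. The E-box CACGTG occurred in 3.6% of the receptor windows, in Grin1 alone, and in 6.0% of all windows, while the cyclic AMP element TGACGTCA was in none of the receptor windows and in 1.5% of all. A match is only a run of letters, and no binding was measured.

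Depth ran from 2.55 to 14.47 M reads per library (M for mega). In the knockouts Trem2 stood at 2.09 ± 1.11 RPKM (mean ± SD, n = 4), against 27 ± 8.69 in P301S+ TREM2+/+ mice, 12.9 ± 8.98 in heterozygotes and 12.4 ± 5.53 in controls. Some libraries stood apart. On the first principal component of all tested genes (50.3% of the variance) control replicate 3, a female, lay at -133 and the other 15 libraries between -18.7 and 23.8. It was the lowest of the 16 libraries for 14 of the 29 receptor genes and the highest for 5, where over all genes it was the lowest for 39.3% and the highest for 24.6%. On the second component (14.3%) both P301S+ TREM2+/+ females stood apart from the rest, at 46.4 and 42.2 against at most 12.9. Many of the differences are therefore also given without these libraries.

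No receptor gene passed an adjusted p of 0.05 in any of the 6 comparisons between genotypes (limma, Benjamini-Hochberg adjustment over all 13368 genes). In all, 0% of the genes tested passed in the P301S effect (P301S+ TREM2+/+ minus control), 0% in partial loss (heterozygote minus P301S+ TREM2+/+) and 0.00748% in complete loss (knockout minus P301S+ TREM2+/+), which was Trem2 alone. It was 0% in complete against partial loss (knockout minus heterozygote), 0% in heterozygotes against controls and 0% in knockouts against controls. At an unadjusted p under 0.05 stood 3 of 29 receptor genes in the P301S effect (all genes 13.2%), 0 in partial loss (2.74%), 3 in complete loss (9.81%), 1 in complete against partial loss (3.52%), 2 in heterozygotes against controls (9.31%) and 3 in knockouts against controls (9.57%). The receptor genes' own shares (10.3%, 0%, 10.3%, 3.45%, 6.9% and 10.3% in that order) were below or close to those of all genes. Comparisons that share a group are not independent of each other.

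No receptor gene passed the adjusted threshold without control replicate 3, nor without that library and both P301S+ TREM2+/+ females. Without those 3 libraries 0 of all genes passed in the P301S effect and 0 in partial loss, and the shares of the other comparisons are not given. Without control replicate 3 alone the shares of all genes that passed were 0.0374% in the P301S effect and 0% in partial loss. They were 0.0972% in complete loss and 0.015% in complete against partial loss. Against controls they were 0.0224% in heterozygotes and 0.00748% in knockouts. In the fit without control replicate 3 alone, 6 receptor genes in the P301S effect had an unadjusted p under 0.05 (all genes 20%). There were 2 in partial loss (9.75%), 5 in complete loss (22.4%) and 2 in complete against partial loss (7.76%). Against controls there were 3 in heterozygotes (8.45%) and 2 in knockouts (4.82%). With all 16 libraries, 1 receptor gene had values in the 2 groups that did not overlap in the P301S effect (all genes 4.77%). The same held for 1 in partial loss (2.81%), 1 in complete loss (7.35%) and 3 in complete against partial loss (5.13%). It held for 0 in heterozygotes against controls (4.27%) and 3 in knockouts against controls (3.82%).

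**Figure D1:**
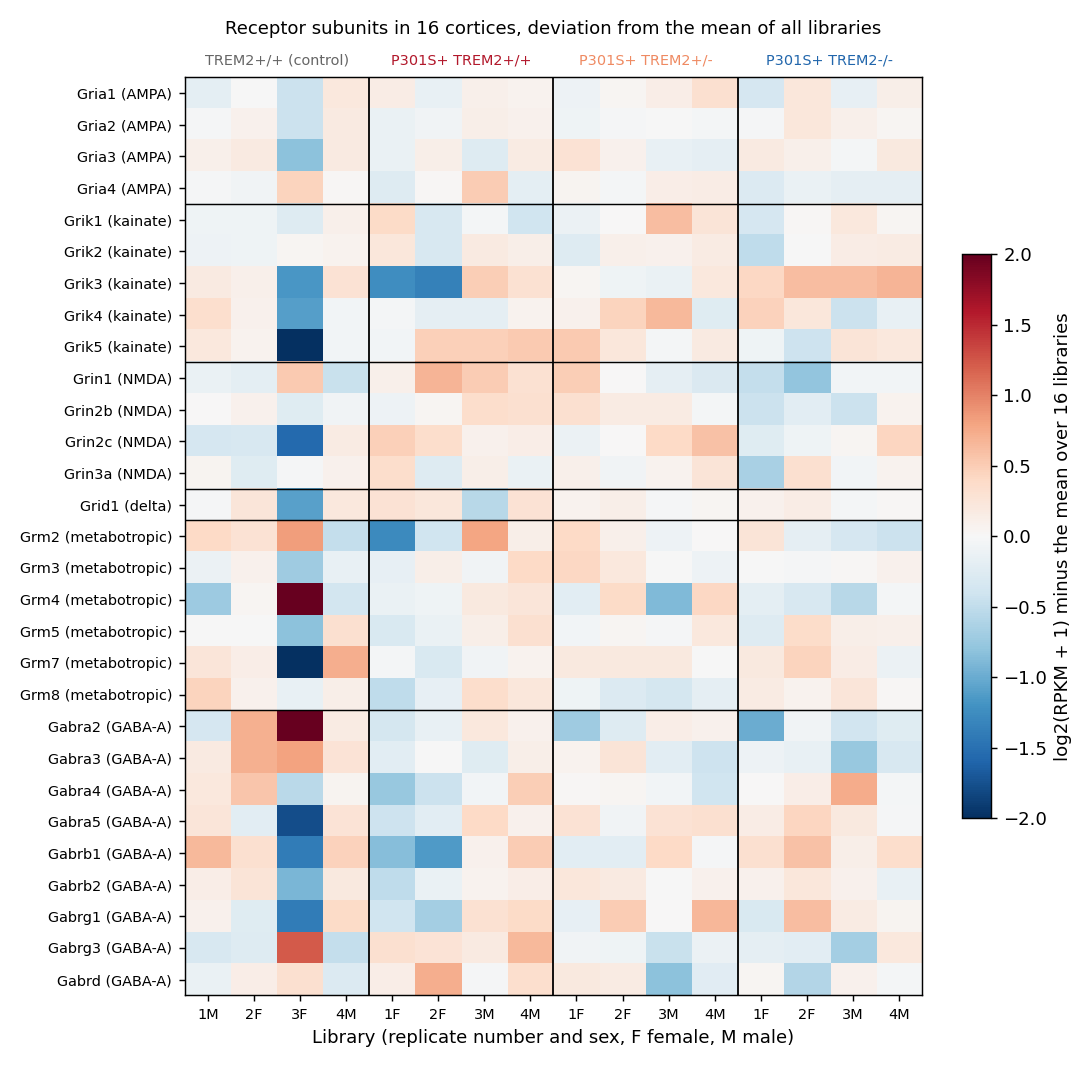
Level of the 29 tested receptor genes (rows, grouped by family) in each of 16 cortices (columns, by genotype and replicate, F female, M male), as log2(RPKM + 1) minus that gene's mean over the 16 libraries, with colours ending at -2 and 2. Control replicate 3 is the column that departs most, for 14 genes as the lowest library and for 5 as the highest.

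The AMPA subunits varied little between cortices. Gria2, the subunit that keeps edited AMPA receptors from passing calcium, stayed between 73.7 and 95.5 RPKM over the 15 libraries other than control replicate 3, a coefficient of variation of 7.33%. In control replicate 3 it was 60.4 RPKM. Its group means were 79.7 ± 13.8 in controls, 81.6 ± 7.04 in P301S+ TREM2+/+ mice, 79 ± 1.99 in heterozygotes and 86.5 ± 6.6 in knockouts (mean ± SD, n = 4), and the 4 groups overlapped. Gria1, which is moved into synapses during potentiation, ran from 82.8 to 130 RPKM and Gria3 from 74.8 to 109 RPKM in the same 15 libraries. In the P301S effect the 4 log2 differences lay between -0.07 and 0.15, and in complete loss between -0.21 and 0.13. Those of the P301S effect without control replicate 3 lay between -0.20 and 0.07. For Gria2 the standard error of the P301S effect was 0.14, so that a modest difference was within error.

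Gria4, the AMPA subunit with a large share in interneurons, had a narrow knockout group. The knockouts held 7.73, 8.66, 8.35 and 8.38 RPKM, the heterozygotes 9.92, 9.34, 10.6 and 10.7 RPKM, and the controls 9.41, 9.06, 13.4 and 9.69 RPKM. Every knockout was below every heterozygote and every control, with log2(RPKM + 1) differences of -0.26 and -0.28. Without control replicate 3, whose 13.4 RPKM was far above the other controls, the difference from controls was -0.14. P301S+ TREM2+/+ mice spread over 7.83, 9.79, 14.1 and 8.23 RPKM and overlapped with all groups. Neither knockout difference passed (limma adjusted p = 1 against heterozygotes), and inhibitory marker genes summed to 859 to 950 RPKM in knockouts and 972 to 1080 RPKM in heterozygotes, whose part in the result was not tested.

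The NMDA genes lay to 1 side of 0 in several comparisons. All 4 tested genes were higher in P301S+ TREM2+/+ mice than in controls (median log2 difference 0.34, all genes 0.05), and all 4 were lower in knockouts than in P301S+ TREM2+/+ mice (median -0.32, all genes -0.02). The P301S+ TREM2+/+ mice enter both of these comparisons. Without control replicate 3 and both P301S+ TREM2+/+ females the pattern did not hold: complete loss gave 0.13 for Grin2c and 0.03 for Grin3a, and the P301S effect -0.04 for Grin3a. Grin1 and Grin2b kept their signs in both comparisons. Knockouts were also lower than heterozygotes for 4 of 4 (median -0.27, all genes -0.03). None of these 12 differences passed the adjusted threshold, and they describe a list chosen with results known.

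Grin1, without which no NMDA receptor forms (chromosome 2, 25291181 to 25319187, minus strand, GRCm38), measured 20.9, 20, 33.3 and 16.6 RPKM in control replicates 1 to 4. P301S+ TREM2+/+ mice had 24.7, 37.3, 33.2 and 28.6 RPKM, heterozygotes 32.7, 23, 20.1 and 18.7 RPKM, and knockouts 16.2, 12.9, 22.2 and 22 RPKM. The P301S+ TREM2+/+ values lay above every knockout value, and above every control value but that of control replicate 3. The P301S effect was 0.46 ± 0.24 (log2 difference ± SE, limma adjusted p = 0.415), and 0.66 without control replicate 3 (adjusted p = 0.164). Complete loss gave -0.74 ± 0.24 (limma adjusted p = 0.44), and the same difference with an adjusted p of 0.0811 when control replicate 3 was left out. Without that library and both P301S+ TREM2+/+ females it was -0.75 (adjusted p = 0.817, fewer libraries in the fit). Partial loss lay between, at -0.39 (adjusted p = 1).

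Grin2b, the subunit that predominates early in development, was 13.8 ± 2.48 RPKM in knockouts (12, 14, 12 and 17.3). It was 18.5 ± 1.98 RPKM in heterozygotes (20.9, 18.5, 18.6 and 16) and 18.6 ± 2.87 RPKM in P301S+ TREM2+/+ mice (15.3, 17, 21.2 and 20.7). Only knockout replicate 4 reached into the range of either group. The knockouts differed by -0.40 ± 0.15 from P301S+ TREM2+/+ mice (limma adjusted p = 0.44, and -0.60 without the 3 libraries) and by -0.40 from heterozygotes (unadjusted p = 0.0191, limma adjusted p = 1). Controls held 16.5, 17.5, 13.7 and 15.7 RPKM, with a mean between these groups.

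Grin2c, best known from cerebellum and from glia, had 17, 17.1, 6.68 and 24.5 RPKM in controls and 30.5, 27.8, 23.2 and 23.8 in P301S+ TREM2+/+ mice. The 2 groups overlapped only through control replicate 4. Its P301S effect of 0.77 ± 0.27 (limma adjusted p = 0.282) was 0.46 without control replicate 3, whose 6.68 RPKM was the lowest value of all 16 libraries. It was 0.14 when the P301S+ TREM2+/+ females were left out as well. Heterozygotes (25.9 ± 6.08 RPKM) and knockouts (22.6 ± 5.01 RPKM) exceeded the control mean of 16.3 ± 7.32 RPKM by 0.73 and 0.55 (limma adjusted p = 0.514 and 0.467), and by 0.42 and 0.23 without control replicate 3. Summed astrocyte markers ran from 1630 to 1760 RPKM in controls other than replicate 3 (2320 RPKM) and from 1660 to 2410 RPKM in P301S+ TREM2+/+ mice, and their part in the Grin2c values was not tested.

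Grin3a, which lowers calcium entry when it joins the receptor, stayed between 4.58 and 10.1 RPKM and showed differences from -0.16 to 0.12 over the 6 comparisons with all libraries. Grin2a, the mature cortical partner of Grin1, had only 2 to 28 reads per library (0.174 to 1.19 RPKM), and Grin2d had at most 4 reads in a library (0 to 0.0863 RPKM). The gene length implied by the files for Grin2a was 4512 bases, against 14634 bases for the longest GENCODE transcript. Other genes with short models included Grin2b (7505 against 24060 bases), Gabra2 (2392 against 5852 bases) and Gabrg3 (1673 against 9767 bases). The libraries read mostly the 3' end of a transcript, and whether the end used in cortex lies inside the counted model was not tested for any gene. No ranking of subunits by level was drawn for that reason.

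**Figure D2:**
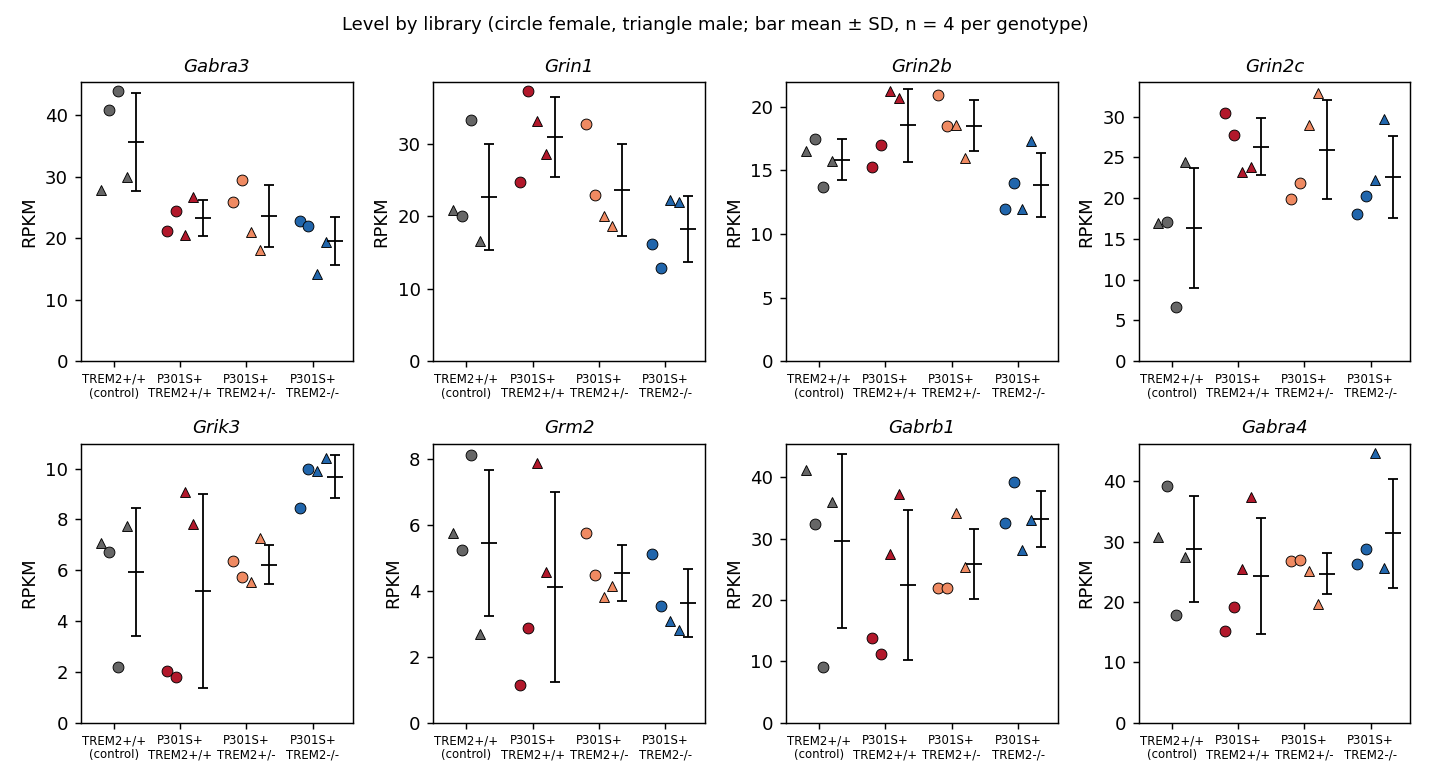
RPKM of 8 receptor genes in each cortex, with circles for females, triangles for males, and bars for the mean ± SD of 4 mice per genotype on axes that start at 0. Gabra3 has its highest mean in controls, Grin1 lies lower in all 4 knockouts than in any P301S+ TREM2+/+ mouse, and Grik3 is low in both P301S+ TREM2+/+ females and in control replicate 3.

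Among the kainate genes, Grik3, a subunit with low affinity for glutamate that is often presynaptic, varied most. P301S+ TREM2+/+ females had 2.03 and 1.81 RPKM and the males 9.07 and 7.83. All knockouts were high, at 8.46, 9.97, 9.89 and 10.4 RPKM, above all heterozygotes (6.36, 5.75, 5.52 and 7.27) and all controls (7.08, 6.7, 2.2 and 7.73). Complete loss had the largest log2 difference of the receptor genes in that comparison, 1.02 ± 0.32 (unadjusted p = 0.00605, limma adjusted p = 0.44). Without control replicate 3 and both P301S+ TREM2+/+ females the same difference was 0.23 (adjusted p = 0.861). Against heterozygotes the knockouts differed by 0.57, with adjusted p = 1 in the full fit and 0.0596 without the 3 libraries. Against controls they differed by 0.72 ± 0.32 (limma adjusted p = 0.467), and by 0.47 without control replicate 3.

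Grik5, a high-affinity subunit that needs a partner from Grik1 to Grik3, was 15.4, 13.8, 1.49 and 12.6 RPKM in controls and 12.7, 18.6, 18.6 and 19.4 RPKM in P301S+ TREM2+/+ mice. The value of 1.49 RPKM in control replicate 3 came from 30 reads. The P301S effect of 0.93 ± 0.42 (limma adjusted p = 0.37) was 0.31 without that library (adjusted p = 0.368). Grik1 differed by 0.28 in partial loss (5.64 ± 1.58 against 4.49 ± 1.41 RPKM, limma adjusted p = 1), and by 0.56 without control replicate 3 and the P301S+ TREM2+/+ females. Grik2 ranged from 4.09 to 7.44 RPKM over all libraries, and the other high-affinity subunit, Grik4, from 1.98 to 5.27 RPKM outside control replicate 3, with 0.877 RPKM there. Grid1, a delta receptor that bridges synapses through cerebellins, stayed between 7.57 and 8.69 RPKM in the heterozygotes and knockouts. In P301S+ TREM2+/+ mice it was 9.65, 9.2, 4.94 and 9.76 RPKM, with replicate 3 far below the rest.

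None of the 6 metabotropic genes had an adjusted p under 0.05. Grm5, the postsynaptic group I receptor coupled to phospholipase C, ran from 41.4 to 66.1 RPKM outside control replicate 3 (28.5 RPKM), and its differences lay between 0.04 and 0.21 in the 6 comparisons. Without that library they were -0.07 in the P301S effect, -0.03 in heterozygotes against controls and 0.01 in knockouts against controls. Grm3, found on astrocytes as well as neurons, was 25.7, 25.5, 26.4 and 27.5 RPKM in knockouts, the tightest group of this gene, and 22.5 ± 5.08 RPKM in controls. Grm8, a presynaptic autoreceptor, was 8.36, 7.78, 8.87 and 7.53 RPKM in knockouts and 6.87, 5.92, 5.55 and 6.43 RPKM in heterozygotes, which did not overlap (difference 0.35, unadjusted p = 0.0565, limma adjusted p = 1). The heterozygotes were also 0.35 below the controls (8.24 ± 1.57 RPKM, limma adjusted p = 0.514), and the control and P301S+ TREM2+/+ values overlapped with both.

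For Grm7, a low-affinity receptor of the release site, and for Grm4 the sign of the P301S effect turned with 1 library. Controls had 16, 14.7, 2.56 and 22.6 RPKM of Grm7, against 12.9, 10.6, 12.7 and 14 in P301S+ TREM2+/+ mice. Its P301S effect was 0.14 with all libraries and -0.45 without control replicate 3 (adjusted p = 0.171). Grm4, another presynaptic receptor, was 69.4 RPKM in control replicate 3 and at most 18.7 RPKM in any other library. The P301S effect on Grm4 was -0.25 with that library and 0.38 without it (adjusted p = 0.446). Grm2, a presynaptic receptor that lowers glutamate release, ranged over 7-fold outside control replicate 3, from 1.13 RPKM in a P301S+ TREM2+/+ female to 7.88 RPKM in a male of the same genotype.

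**Figure D3:**
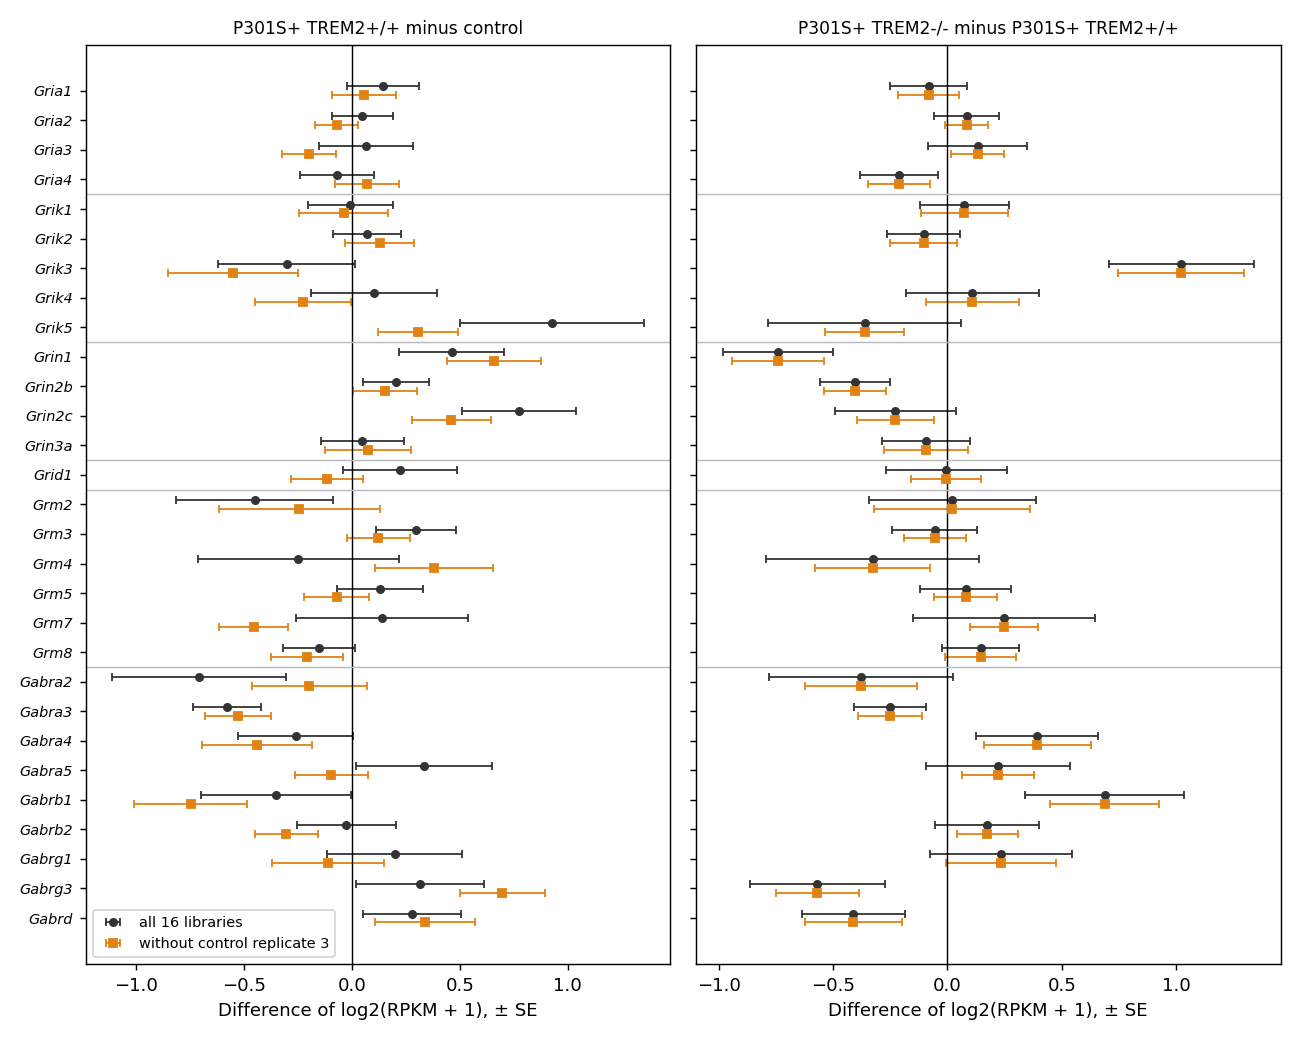
Difference of log2(RPKM + 1) ± SE for each tested receptor gene in the P301S effect (left) and in complete loss (right), from the limma fit with all 16 libraries (circles) and without control replicate 3 (squares). Grm4, Grik5, Grm7 and Gabra2 move most between the 2 fits on the left, whereas the differences on the right, which do not use the controls, keep their size and differ only in SE.

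Of the GABA-A genes, Gabra3 had the smallest p-value of the receptor genes in all 3 comparisons with controls. It encodes an alpha subunit found in monoaminergic nuclei and in deep cortical layers (chromosome X, 72432681 to 72656848, minus strand, GRCm38). Controls had 27.9, 40.9, 43.9 and 30 RPKM, P301S+ TREM2+/+ mice 21.2, 24.5, 20.6 and 26.8, heterozygotes 25.9, 29.5, 21 and 18.1, and knockouts 22.8, 22, 14.2 and 19.4 RPKM. All P301S+ TREM2+/+ mice and all knockouts lay below all controls, while heterozygote replicate 2 overlapped with them. Control females averaged 42.4 RPKM and control males 29, against 22.8 and 23.7 RPKM in P301S+ TREM2+/+ females and males. The female minus male difference in the P301S effect was -0.58 ± 0.29 (limma interaction, unadjusted p = 0.0706, adjusted p = 0.404). The difference from controls was -0.58 ± 0.16 for P301S+ TREM2+/+ mice (unadjusted p = 0.00247, limma adjusted p = 0.271). It was -0.57 ± 0.16 for heterozygotes (unadjusted p = 0.00267, limma adjusted p = 0.483) and -0.83 ± 0.16 for knockouts (unadjusted p = 0.000111, limma adjusted p = 0.372). The 3 comparisons share the controls. Without control replicate 3 they were -0.53, -0.52 and -0.78, with adjusted p from 0.144 to 0.383. Without the P301S+ TREM2+/+ females as well, the P301S effect was -0.30 (adjusted p = 0.798). With library weights the knockout difference of -0.82 passed, at a limma adjusted p of 0.0498, as 1 of 4 among all genes. Knockouts differed from heterozygotes by -0.26 (limma adjusted p = 1). Summed markers of excitatory neurons were 3290 to 9560 RPKM in controls, or 3290 to 6790 without replicate 3, against 2100 to 3790 in P301S+ TREM2+/+ mice. Heterozygotes had 1550 to 5000 RPKM and knockouts 2580 to 4910. Nrgn gave most of these sums (7950 RPKM in control replicate 3). In that library Nrgn, Camk2a and Slc17a7 were at their highest, but Neurod6 (20.8 RPKM) and Tbr1 (25.4 RPKM) at their lowest. Of the 8 markers, 2 were above 0 in the P301S effect, 2 in heterozygotes and 4 in knockouts against controls. Without control replicate 3 these counts were 0, 0 and 3. The markers' part in the Gabra3 values was not tested.

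Gabra2, an alpha subunit of synapses on the axon initial segment, was 113 RPKM in control replicate 3 and 20.1, 42.7 and 28.9 RPKM in the other controls. Differences from controls were -0.71 in P301S+ TREM2+/+ mice, -0.85 in heterozygotes and -1.08 in knockouts (limma adjusted p = 0.451, 0.514 and 0.467). Without that library they were -0.20, -0.34 and -0.57. The knockouts held 12.4, 24.4, 19.4 and 21.5 RPKM and overlapped with the control of 20.1 RPKM.

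4 of the GABA-A genes, Gabrg1, Gabra2, Gabra4 and Gabrb1, lie together on chromosome 5 (70751047 to 72149037, GRCm38), and the starts of Gabra4 and Gabrb1 are those whose sequences were given above. Gabrb1, a beta subunit that forms part of the transmitter site, was 13.8 and 11.2 RPKM in P301S+ TREM2+/+ females and 27.5 and 37.2 in males. The knockouts had 32.5, 39.2, 28.1 and 33.1 RPKM, the heterozygotes 22, 22, 34.1 and 25.4, and the controls 41.1, 32.3, 9.14 and 35.9. Complete loss gave 0.69 ± 0.35 (limma adjusted p = 0.539), and 0.11 without control replicate 3 and the P301S+ TREM2+/+ females. Gabra4, an alpha subunit often paired with delta, was 15.2 and 19.2 RPKM in the same females, and 25.4 and 37.3 in the males. Its knockouts had 26.3, 28.8, 44.7 and 25.6 RPKM, and complete loss a difference of 0.39, or -0.06 without the same 3 libraries.

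Both P301S+ TREM2+/+ females were the lowest pair of the 15 libraries other than control replicate 3 for 4 of 29 receptor genes, Grik3, Gabra4, Gabrb1 and Gabrg1. Over all tested genes they were the lowest pair for 15.1%, so the receptor genes were not unusual in this respect, although 3 of the 4 are the chromosome 5 neighbours. Gabra4 and Gabrb1 had a Pearson correlation of 0.7 over the 16 libraries. It was 0.26 over the 13 without control replicate 3 and both P301S+ TREM2+/+ females. Gabrg1, a gamma subunit with restricted use in the brain, was 10.4 and 8.39 RPKM in these females and 17.6 and 18.7 in the males. The fourth neighbour, Gabra2, was 20 and 23.1 RPKM there, within the range of the heterozygotes and knockouts. Reads of these genes were taken as the files assign them, and the model counted for Gabrb1 was 1860 bases, against 13737 bases for the longest GENCODE transcript.

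No other GABA-A gene passed the threshold. Gabrd, the extrasynaptic delta subunit, was 33.1, 50.3, 29.5 and 38.1 RPKM in P301S+ TREM2+/+ mice and 34.7, 33.7, 16.7 and 25.6 in heterozygotes, which gave the smallest p of the receptor genes in partial loss (difference -0.46, unadjusted p = 0.0594, limma adjusted p = 1). Gabrg3, a minor gamma subunit, was 1.81, 1.71, 1.53 and 2.5 RPKM in P301S+ TREM2+/+ mice, above every heterozygote (1.14, 1.11, 0.652 and 1.07), with a difference of -0.53 in partial loss (limma adjusted p = 1). It was counted with 4 to 53 reads per library. Controls held 0.806, 0.867, 4.23 and 0.604 RPKM, so that the P301S effect was 0.31 with all libraries and 0.70 without control replicate 3 (adjusted p = 0.138). Gabra5, the alpha subunit of tonic currents in pyramidal cells, ran from 18.7 to 34.3 RPKM outside that library, and Gabrb2, the beta subunit of the most common receptor, from 24.3 to 42 RPKM. Their values in control replicate 3 were 6.65 and 18.1 RPKM.

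Over the 29 receptor genes together, 18 differences were above 0 in the P301S effect (62.1%, all genes 56.5%), 18 in partial loss (62.1%, all genes 52.4%) and 14 in complete loss (48.3%, all genes 46.4%). The medians were 0.07, 0.04 and -0.01, against 0.05, 0.01 and -0.02 for all genes. In complete against partial loss 10 were above 0 (34.5%, all genes 44.2%), with a median of -0.11. The signs of some medians turned with the libraries that stood apart. Without control replicate 3 the P301S effect had a median of -0.07 and 12 differences above 0, and the knockouts against controls went from 0.13 to -0.06. Without that library and both P301S+ TREM2+/+ females, 8 differences were above 0 in partial loss (27.6%, all genes 52%, median -0.13) and 9 in complete loss (31%, all genes 49.7%, median -0.09). The NMDA median in the P301S effect stayed positive without control replicate 3 alone (0.31) and that of the GABA-A genes moved from -0.03 to -0.20.

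The effect of genotype was compared between the sexes by testing the interaction, with 2 mice per sex and genotype. No receptor gene passed the adjusted threshold. Unadjusted p-values under 0.05 were found for 4 receptor genes in the P301S effect (12.8% of all genes), 3 in partial loss (6.6%) and 3 in complete loss (7.23%). Grik3 had a female minus male difference of 1.63 ± 0.46 in partial loss (unadjusted p = 0.00406, limma adjusted p = 0.629) and 1.56 ± 0.46 in complete loss (unadjusted p = 0.00535, limma adjusted p = 0.515). The mean Grik3 level was 1.92 RPKM in P301S+ TREM2+/+ females and 8.45 in males, against 6.05 and 6.39 in heterozygotes and 9.22 and 10.1 in knockouts. Grm2 was also low in P301S+ TREM2+/+ females, at 2 RPKM against 6.22 in males. Unlike Grik3, its males were lower in heterozygotes (3.96 RPKM) and knockouts (2.95 RPKM), while its females were higher (5.11 and 4.33 RPKM). The Grm2 interaction was -1.89 in the P301S effect, 1.58 in partial loss and 1.71 in complete loss (limma adjusted p = 0.358, 0.651 and 0.533). These 3 comparisons share the P301S+ TREM2+/+ mice. The P301S effect also uses control replicate 3, a female, where Grm2 was 8.11 RPKM, the highest of all libraries. The interaction was not fitted without that library.

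Genes that hold, feed or assist the receptors were described from 4 lists. Of 31 tested auxiliary subunits and scaffolds of glutamate receptors, none passed in any comparison, and 17 were above 0 in the P301S effect (median 0.02), or 15 without control replicate 3 (median -0.01). Dlg4, which encodes the postsynaptic scaffold PSD-95, was 116 ± 40.5 RPKM in controls and 48.2 ± 4.99 in P301S+ TREM2+/+ mice (P301S effect -1.20 ± 0.29, unadjusted p = 0.00089, limma adjusted p = 0.271), and the difference was -1.25 without control replicate 3. Neto2, a kainate receptor auxiliary subunit, and Dlg3, the scaffold SAP102, differed by 0.60 and 0.50 with all libraries (limma adjusted p = 0.359 and 0.37) and by 0.28 and 0.23 without that library.

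Among 10 genes that anchor GABA-A receptors, none passed in any comparison, and 5 were above 0 in the P301S effect (median 0.01), or 7 without control replicate 3. Nlgn2, the adhesion protein of inhibitory synapses, was 6.86 ± 0.878 against 10.9 ± 2.46 RPKM in controls (-0.58 ± 0.16, limma adjusted p = 0.271). Lhfpl4, which recruits the receptor to the synapse, and Iqsec3 differed by 0.61 and 0.50, and by 0.30 and 0.16 without control replicate 3.

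Of 15 genes for glutamate and GABA synthesis and transport, none passed in any comparison, and 12 were above 0 in the P301S effect (median 0.23), or 10 without control replicate 3 (median 0.13). Slc1a2, the main astrocytic glutamate transporter, was 583 ± 131 RPKM against 367 ± 80.4 in controls (0.67 ± 0.21, limma adjusted p = 0.278). Slc17a7, the vesicular glutamate transporter of cortical pyramidal cells, was 114 ± 30.2 against 192 ± 58.8 RPKM (-0.74 ± 0.27, limma adjusted p = 0.299). The neuronal transporter Slc1a1 differed by 0.35, and by 0.14 without control replicate 3. Of the 7 genes for GABA-B receptors and their regulators none passed, and 3 were above 0 in the P301S effect (median -0.14), or 5 without control replicate 3, when the median was above 0 (0.145). Its leading genes were Kctd8 (0.47), the receptor subunit Gabbr2 (-0.42) and the potassium channel Kcnj6 (0.16), with limma adjusted p from 0.418 to 0.659. Without that library Kctd8 differed by 0.23 and Gabbr2 by -0.15.

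Summed marker genes described the make-up of the samples. Cortical markers were present in every library: Slc17a7, which defines cortical pyramidal cells, was at least 64 RPKM, and inhibitory sums ran from 828 to 1160 RPKM. Oligodendrocyte markers summed to 545 to 708 RPKM in controls, 685 to 955 in P301S+ TREM2+/+ mice, 787 to 950 in heterozygotes and 817 to 1200 in knockouts. Microglia markers were 1120 RPKM in control replicate 3 and 218 to 310 in the other controls. Striatal markers varied within each genotype, from 232 to 987 RPKM in controls and from 387 to 1770 RPKM in knockouts, as did those of choroid plexus, from 188 to 630 RPKM in controls and from 293 to 2010 RPKM in P301S+ TREM2+/+ mice. Their part in the receptor values was not tested.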

How the data were processed

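Cortical RNA of 16 mice was made into 3' end libraries with the Lexogen QuantSeq kit, per the labels' protocols. The submitters' processing notes name STAR, HTSeq, edgeR, limma and the build mm10, with no versions. The authors deposited 1 table per library whose values behave as RPKM: multiples of 1 read were found for 100.0% of the 18911 genes above 0 (tolerance 0.0001 reads plus a relative 2e-06). Whether counting used strand is not given. 1 unnamed line per file was left out.

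limma 3.58.1 in R 4.3.3 (trend) was fitted to log2(RPKM + 1) for 13368 genes with a mean of at least 0.5 RPKM, with genotype and sex (11 residual degrees of freedom). Fold changes on this scale understate those of low genes. The code was tested on simulated data. Members and lists were chosen with earlier results of these data known. Values are given in full for the 4 genes with the smallest p per comparison, 3 genes per context list in the P301S effect, and for others chosen after seeing their values. Libraries of a genotype differed by at least 6.87 in chi-square per gene and were counted as separate mice. Whether they are separate preparations is not given, and PCR reads without molecular identifiers bound counting error only.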

Additional observations from a re-analysis of the deposited data

Results flagged for a closer look

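In 11 of the 116 groups of 4 mice (29 genes, 4 genotypes) 1 library lay far from the other 3 by Dixon's test at its 95% critical value, where chance alone flags about 1 group in 20. 5 of the 11 were control replicate 3. In it Gria3 was 50.2 RPKM (other controls 95.2 to 101), Gria4 13.4 (9.06 to 9.69), Grm4 69.4 (8.01 to 14.2), Gabrb2 18.1 (38.6 to 42) and Gabrg3 4.23 (0.604 to 0.867). In P301S+ TREM2+/+ mice, Grik5 was 12.7 RPKM in replicate 1 (others 18.6 to 19.4) and Grid1 4.94 in replicate 3 (9.2 to 9.76). Among heterozygotes, Grm7 was 13.3 RPKM in replicate 4 (15.3 to 15.4), Gabra5 23.9 in replicate 2 (30.9 to 31.8) and Gabrg3 0.652 in replicate 3 (1.07 to 1.14). Gabra4 was 44.7 RPKM in knockout replicate 3 (25.6 to 28.8).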

How the results depend on the processing

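The count of receptor genes past the threshold was 0 in each of the 6 genotype comparisons when any 1 library was left out (lowest 0, highest 0), and under other filters, pseudocounts, TMM scaling, quantile normalization, no sex term, fits of only the groups compared and limma-voom on the recovered reads. The exception was library weights from limma, which set control replicate 3 to 0.0497. Knockouts against controls then had 1 receptor gene past the threshold (Gabra3, -0.82), among 4 of all 13368 genes. The sexes differed for 1 receptor gene in partial loss (Grik3), where 212 of all genes passed. They differed for 2 in complete loss (Grik3 and Gabrb1), where 369 of all genes passed. Without weights the count of receptor genes was 0 in each. Among all genes, the P301S effect had 5 past the threshold without control replicate 3, 3 with library weights and 1 without heterozygote replicate 2. It had 0 in every other of these genotype fits. Leaving out 1 library moved the median over receptor genes between -0.07 and 0.16 in the P301S effect, -0.02 and 0.09 in partial loss, -0.04 and 0.06 in complete loss, -0.14 and -0.04 in complete against partial loss, 0.09 and 0.21 in heterozygotes against controls and -0.06 and 0.20 in knockouts against controls. The P301S median was -0.07 without control replicate 3, -0.01 with TMM scaling and -0.09 with library weights. Without control replicate 3 and both P301S+ TREM2+/+ females the count past the threshold was also 0 in each comparison, and the median was -0.13 in partial loss and -0.09 in complete loss. The edgeR quasi-likelihood fits planned on the recovered reads, with TMM and with RLE factors, were not run. No paired analysis was possible because the labels name no litter, batch or preparation day by which to pair mice. Genes with few reads, such as Gabrg3 (4 to 53 per library), limit what can be seen.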
